A study of Mus musculus with 16 samples.

Results

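The comparison described here set mice lacking estrogen receptor alpha in osteoclasts against wild-type mice, all 4 h after estrogen, on 8 of the 16 arrays of the series. The arrays were chosen by their titles: 4 estrogen-treated knockout mice and 4 estrogen-treated wild-type mice, each group numbered 1 to 4. All mice were C57BL/6 females that had been ovariectomized, which removes the main source of circulating estrogen. The end of the left femur nearest the knee (the distal 5 mm) gave the RNA, and each mouse had its own array. The other 8 arrays, 4 of each genotype without estrogen (called vehicle here, although the labels of the knockout animals name no vehicle), entered the fit and are given for reference. The estrogen compound, its dose, the ages of the mice and the driver of the osteoclast-specific deletion are not stated in the labels. Of 18193 named genes on the array, 12735 were bright enough to be tested. Differences are knockout minus wild type on the log2(signal + 16) scale, with the standard error (SE) of the fit and 4 arrays per group, and the replicate set in the titles (1 and 2, or 3 and 4) was a term in the model.

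Estrogen receptor alpha, encoded by Esr1, is a nuclear receptor that binds estrogen and then controls transcription in many bone cells. Osteoclasts are the multinucleated cells of the monocyte lineage that resorb bone, and loss of estrogen raises their number and activity. Fas ligand (Fasl) triggers apoptosis of cells that carry the receptor Fas, and the title of the series names Fas ligand signalling downstream of the osteoclast receptor. A piece of distal femur holds marrow, bone, growth plate cartilage and attached muscle besides the few osteoclasts. In such bulk RNA, fewer cells of a type and less RNA per cell cannot be told apart.

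Esr1, the targeted gene, had overlapping signals in the 2 groups. Its values were 475, 456, 434 and 664 in wild-type replicates 1 to 4 and 753, 513, 484 and 409 in knockouts. The difference was 0.07 ± 0.19 (SE, n = 4 per group), with an adjusted p of 0.947 in limma and an exact two-sided permutation p of 0.667 within replicate sets, where 36 arrangements allow no p under 0.0556. Other cell types of the femur keep the receptor and the position of the probes relative to the deleted exons is not known here, so this signal does not check the genotype labels. The other 2 Esr1 probe sets gave -0.35 and -0.06. Under vehicle the knockout arrays, at 580 to 723, all lay below the wild-type arrays, at 792 to 1100, with a difference of -0.55 ± 0.19 and an adjusted p of 0.754 by limma.

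Fasl was dim in this tissue and lay under the filter on low signal, so the model was refitted with all genes kept to give its limma values. The wild-type signals were 119, 171, 99.6 and 115, and the knockout signals were 106, 76.5, 60.9 and 115. The knockout was the lower of the 2 group means, at 89.7 ± 25.3 against 126 ± 31.3 (SD), but the groups overlapped. The difference of -0.44 ± 0.28 had an adjusted p of 0.736 (limma) and an exact permutation p of 0.222. A second Fasl probe set gave 0.13, the opposite direction.

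Fas, the receptor of Fas ligand, stood at 358, 298, 266 and 102 in wild type and at 511, 207, 181 and 119 in knockouts, a difference of -0.08 ± 0.38 (adjusted p = 0.971, limma). Ctsk, cathepsin K, the main collagen-degrading protease of osteoclasts, read 5738, 3295, 11500 and 7226 in wild type and 4110, 8327, 13852 and 12228 in knockouts. Within both genotypes Ctsk was brighter in replicates 3 and 4 than in 1 and 2. The difference was 0.47 ± 0.21 (adjusted p = 0.482, limma). The exact permutation p within sets was 0.833 for Fas and 0.222 for Ctsk.

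**Figure D1:**
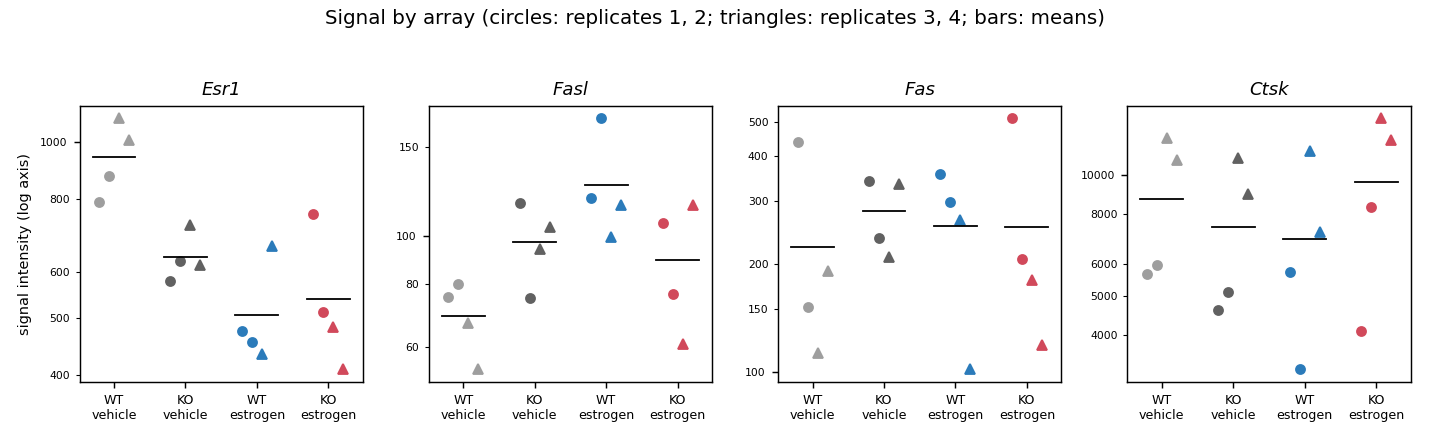
Signal intensity (log axis) of Esr1, Fasl, Fas and Ctsk on each of the 16 arrays, by genotype and treatment, with circles for replicates 1 and 2, triangles for 3 and 4 and bars for means. After estrogen, the knockout and wild-type points overlap in all 4 genes.

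No gene passed an adjusted p of 0.05 after estrogen: limma called 0 of 12735 genes (0%), and the smallest adjusted p was 0.335, for Col5a1. At an unadjusted p under 0.05 there were 1253 genes (9.84%), 705 higher in the knockout (5.54%) and 548 lower (4.30%), where 637 would be expected if genes were independent and none differed. The 4 knockout and 4 wild-type arrays did not overlap in 155 genes on the higher side (1.22%) and 148 on the lower side (1.16%). The genes below are therefore the leading ones of a ranking and none of them is a called difference. They comprise the 15 of smallest p on each side, from 0.59 to 1.56 among the higher ones and from -1.11 to -0.54 among the lower ones, with adjusted p values of 0.335 to 0.347. Both replicate sets gave the same sign in all 30 of these genes, which the choice by p favours. Other probe sets for the same genes numbered 23, and 16 of them had the same sign. Of the 16 above the filter on low signal, 13 did.

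**Figure D2:**
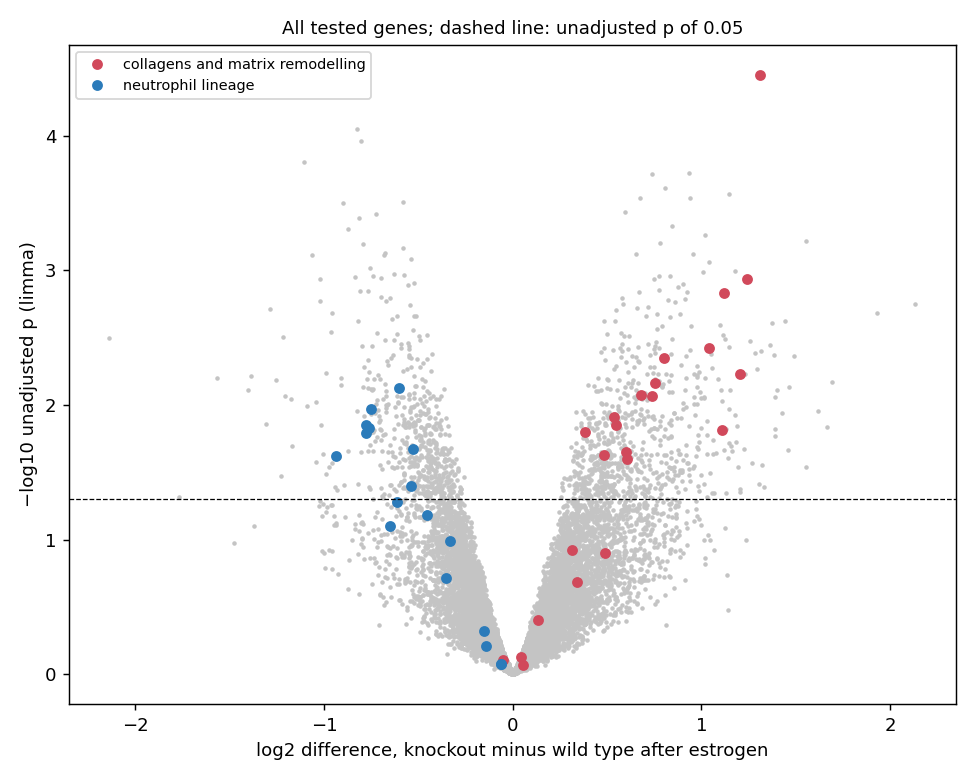
Log2 difference, knockout minus wild type after estrogen, against the −log10 unadjusted p of limma for the 12735 tested genes, with the collagen and matrix list in red and the neutrophil list in blue. All but 1 of the 23 red points lie right of 0, and all 17 blue points lie left of it.

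Col5a1, Thbs3 and Col6a3, among the higher 15, encode proteins of the extracellular matrix. Col5a1, a chain of the fibril-forming type V collagen, gave 2604, 1990, 1893 and 876 in wild type and 4516, 5001, 3955 and 3756 in knockouts. The groups were fully separated, and the knockout mean of 4307 ± 563 (SD) stood near the vehicle means of 4147 in wild type and 3944 in knockouts, while wild type after estrogen averaged 1841 ± 716. The difference was 1.31 ± 0.24, a 2.48-fold higher knockout signal (adjusted p = 0.335, limma), and its other probe sets gave 0.67 and 0.69. Thbs3, a thrombospondin of the matrix, read 162, 133, 44.4 and 104 in wild type and 489, 593, 292 and 135 in knockouts. Knockout replicate 4 was inside the wild-type range, and the difference was 1.56 ± 0.37.

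Col6a3, a chain of the beaded-filament type VI collagen, stood at 2921, 2119, 3020 and 3250 in wild type and at 5711, 7262, 7087 and 2959 in knockouts. Knockout replicates 1 to 3 were all above wild type, and replicate 4 was not. The difference was 0.96 ± 0.23. Without that array it was one of 2 genes that passed, with an adjusted p of 0.00183 by limma, the other being Islr. Leaving out the knockout array that lay inside the wild-type range favours a small p for Col6a3. With any other single array left out, 0 genes passed, so this p is not a call.

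Pdgfra, the platelet-derived growth factor receptor of mesenchymal cells, gave 858, 604, 1317 and 605 in wild type and 1657, 1307, 2048 and 1650 in knockouts. The ranges overlapped only in knockout replicate 2 and wild-type replicate 3, and the difference was 1.02 ± 0.24. Ptgfrn, a membrane protein that associates with the prostaglandin F2 receptor, ran from 405 to 652 in wild type and from 701 to 1348 in knockouts, without overlap (0.93 ± 0.20). Pla2g5, a secreted phospholipase A2, lay between 171 and 287 in wild type and between 303 and 648 in knockouts (1.04 ± 0.26).

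Id3, an inhibitor of helix-loop-helix transcription factors and a target of bone morphogenetic proteins, read 1154, 835, 1142 and 1129 in wild type and 1538, 1901, 3140 and 1876 in knockouts. The groups did not overlap, and the difference was 0.94 ± 0.21. Bhlhe40, a repressor that takes part in the circadian clock, stood at 956, 638, 670 and 562 in wild type and at 1018, 1346, 1357 and 1122 in knockouts (0.78 ± 0.19). Cdk14, a cyclin-dependent kinase linked to Wnt signalling, ranged from 109 to 231 in wild type and from 312 to 597 in knockouts (1.14 ± 0.25). Dusp7, a phosphatase of MAP kinases, gave 0.84 ± 0.20, but its other probe sets gave 0.10 and -0.06.

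Ppargc1b, a coactivator of mitochondrial genes, had wild-type signals of 759, 476, 794 and 593 and knockout signals of 1038, 902, 1101 and 1043, again without overlap (0.65 ± 0.16). Bmyc, a relative of Myc, differed by 0.74 ± 0.16, Krba1 by 0.81 ± 0.17 and Cops7a, a subunit of the COP9 signalosome, by 0.68 ± 0.15. Mcm2, part of the replicative helicase, differed by 0.59 ± 0.13, and its ranges overlapped because replicates 3 and 4 were brighter than 1 and 2 in both genotypes, from 2124 to 5694 in wild type and from 3385 to 7337 in knockouts. A second Mcm2 probe set, also bright, gave -0.09. Of 24 tested cell cycle genes, 16 were below 0, against 46.6% of all genes. Their median was -0.06, and ran from -0.16 to 0.13 with an array left out. Mcm2 alone had an unadjusted p under 0.05 by limma, against 5.54% of all genes on the higher side. Its relatives Mcm6, Mcm5 and Mcm3 stood at -0.28, -0.06 and -0.02.

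Among the lower 15, C5ar1, Pilra, Fcgr3, Arhgap15, Lcp1 and Ccdc88b are known from leukocytes. C5ar1, the receptor for complement C5a, read 1360, 2060, 1113 and 904 in wild type and 698, 917, 642 and 687 in knockouts. Only the knockout value of 917 reached the wild-type range, and the difference was -0.82 ± 0.19. Pilra, an inhibitory receptor of myeloid cells, stood at 1563, 1666, 1126 and 1312 in wild type and at 790, 631, 794 and 1041 in knockouts, without overlap (-0.79 ± 0.19). Fcgr3, a receptor for IgG, gave 3384, 3336, 2913 and 1874 in wild type and 1337, 1587, 1771 and 1971 in knockouts (-0.76 ± 0.19). The monocyte and macrophage markers, Fcgr3 among them, showed no shared shift. Of 17 tested, 10 were above 0, against 53.4% of all genes, and the median was 0.02. Fcgr3 alone had an unadjusted p under 0.05 by limma, against 4.30% of all genes on the lower side.

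Arhgap15, a GTPase-activating protein for Rac in blood cells, stood at 1628, 1442, 1468 and 1251 in wild type and at 603, 750, 1097 and 907 in knockouts, a difference of -0.80 ± 0.16. Lcp1, the leukocyte actin-bundling protein L-plastin, was bright on all arrays, from 11476 to 17346 in wild type and from 7091 to 10457 in knockouts (-0.63 ± 0.16). Ceacam10 read 1477, 3578, 2010 and 1329 in wild type and 823, 830, 860 and 1219 in knockouts. This gene had the second largest difference of the lower 15, -1.06 ± 0.26 and both of its other probe sets had the same sign. Ccdc88b, a coiled-coil protein of immune cells, differed by -0.68 ± 0.17.

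The remaining lower genes were not grouped by cell type. Bin3, a BAR-domain protein, had the smallest p on this side: wild type gave 3130, 5164, 3743 and 3188 and the knockout 1869, 2141, 1884 and 2546. No array overlapped, the vehicle arrays lay between 1794 and 2534, and the difference was -0.83 ± 0.16, a 1.77-fold lower knockout signal (adjusted p = 0.335, limma). Slc2a6, a glucose transporter of the facilitative family, stood at 512, 664, 481 and 298 in wild type and at 236, 211, 215 and 181 in knockouts (-1.11 ± 0.23). Its wild-type vehicle arrays were split by replicate set, at 609 and 621 against 235 and 268.

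Copg2, a coatomer subunit, differed by -0.72 ± 0.16, Tbc1d20, a Rab GTPase-activating protein, by -0.58 ± 0.14, and Pspc1, a paraspeckle protein, by -0.54 ± 0.13, with 0.05 from its other probe set. Mob3a differed by -0.58 ± 0.13, Nfkbil1 by -0.68 ± 0.17 and Acpp, an acid phosphatase, by -0.87 ± 0.20, while the other 2 Acpp probe sets gave 0.03 and -0.82. In 11 of the 15 higher and 13 of the 15 lower genes the groups did not overlap, but the same arrays chose these genes.

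**Figure D3:**
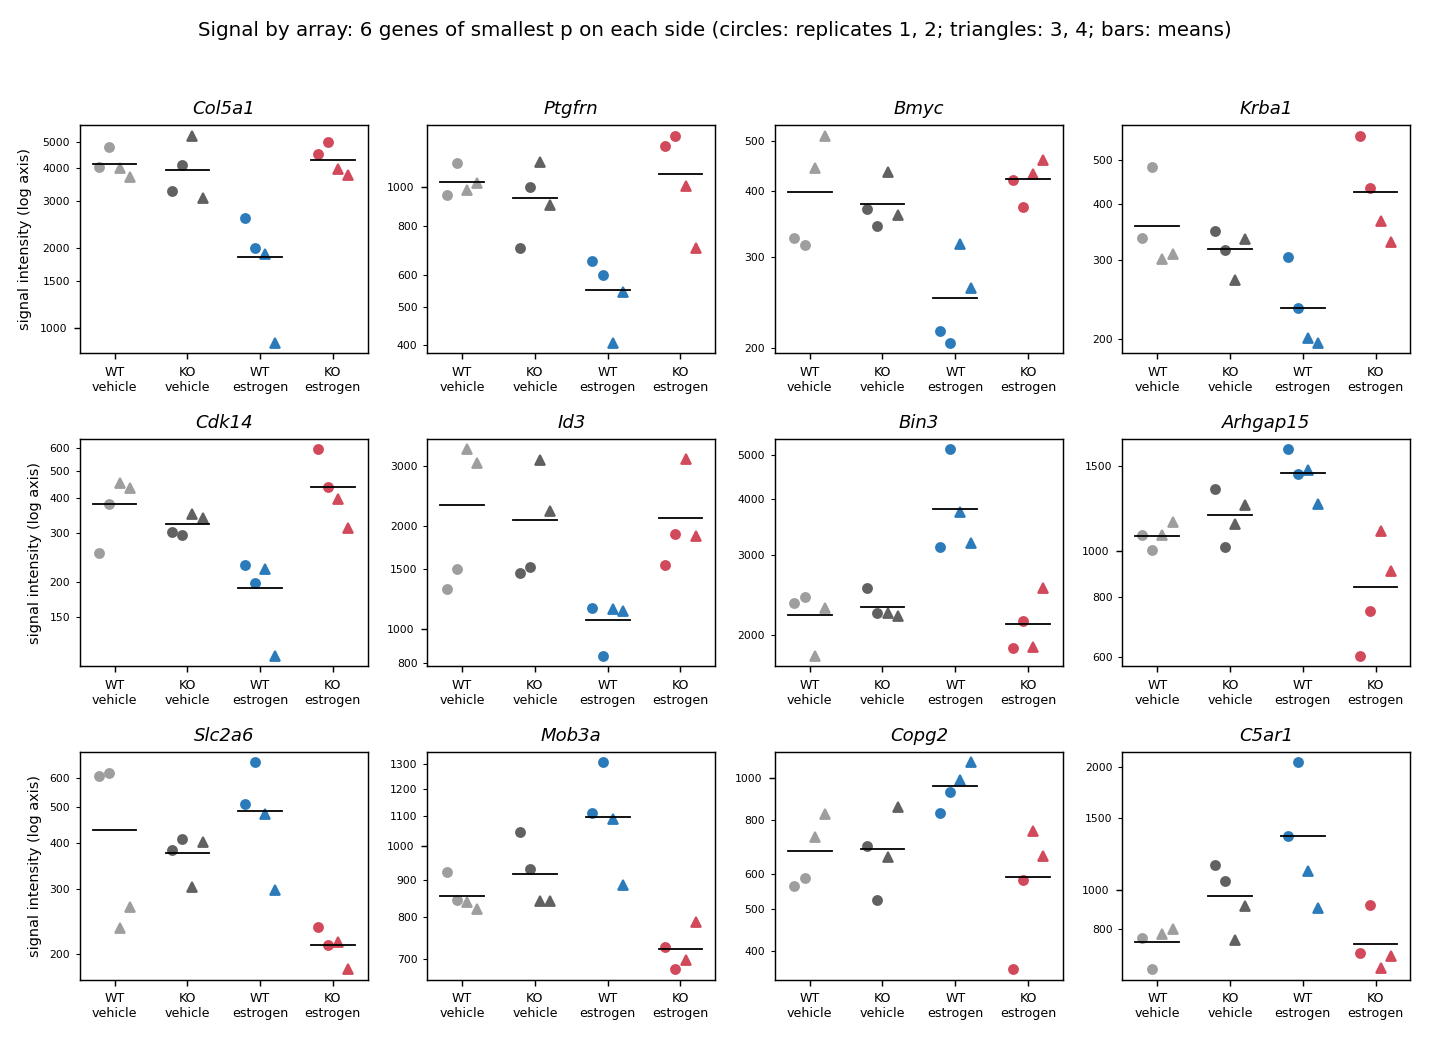
Signal intensity (log axis) on all 16 arrays for the 6 genes of smallest p on each side, with circles for replicates 1 and 2, triangles for 3 and 4 and bars for group means. In each panel wild type after estrogen (blue) has the lowest or the highest mean of the 4 groups, and knockout after estrogen (red) lies nearer the vehicle groups or beyond them. The choice of genes by p favours this.

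The 30 genes shared a pattern over the 4 groups that the ranking favours but does not fix. Wild type after estrogen had the lowest of the 4 group means in all 15 higher genes and the highest in all 15 lower genes. Knockout after estrogen had the opposite extreme in 13 of 15 on each side. The share of all tested genes with such a pattern was not counted, so these counts only describe the chosen genes. The median of the 15 higher genes was 9.16 in wild type after estrogen, 10.01 in knockout after estrogen, 9.65 in wild type under vehicle and 9.64 in knockout under vehicle, in log2 units. In the lower genes these medians were 10.36, 9.54, 9.77 and 9.92.

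The genotype difference was also set against the one under vehicle, which used other arrays. Under vehicle 0 genes passed in limma and 830 had an unadjusted p under 0.05 (6.52%). For the difference of the 2 genotype differences, again 0 genes passed, and 1536 had an unadjusted p under 0.05 (12.1%). Col5a1 had a vehicle difference of -0.10 ± 0.24, and its 2 differences were 1.41 ± 0.33 apart (adjusted p = 0.276, limma). Bin3 had a vehicle difference of 0.06 ± 0.16, and the gap was -0.89 ± 0.23 (adjusted p = 0.276). Both genes were chosen by their difference after estrogen, which enters the gap and favours a large one. Across the 12735 genes the 2 genotype differences had a Pearson correlation of -0.24, given as a description since genes are not independent replicates and the replicate sets are common to both.

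The list of collagens and matrix remodelling had the highest median of the 29 gene lists in the fit of all arrays. That rank depended on the arrays: cartilage stood higher without knockout replicate 1 (0.76 against 0.59) and muscle in replicates 1 and 2 (1.35 against 0.91). Of its 23 tested genes, 22 were above 0 and 16 had an unadjusted p under 0.05 on the higher side, against 53.4% above 0 and 5.54% of all tested genes. None passed the adjusted threshold in limma, and the groups of 2 genes did not overlap, against 1.22% of all genes on the higher side. The list median was 0.60, against 0.02 for all genes. The 29 lists and their members were chosen with earlier results of these data known. The counts of each list beside the shares of all genes are therefore descriptions and not tests. After Col5a1, Col12a1, a fibril-associated collagen, read 1506, 728, 832 and 1109 in wild type and 2444, 4521, 2411 and 1235 in knockouts (1.24 ± 0.32). Col3a1, the fibrillar collagen of soft connective tissue, read 13756, 10090, 5015 and 9415 in wild type and 40457, 31502, 13802 and 8306 in knockouts (1.12 ± 0.29). In both genes knockout replicate 4 lay inside the wild-type range.

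Small leucine-rich proteoglycans, which bind collagen fibrils, had the same sign: Fmod 1.20, Lum 1.04, Dcn 0.60 and Bgn 0.38. Among proteases and inhibitors, Mmp2 (gelatinase A) differed by 0.80, Timp1 by 0.75, Timp2 by 0.61 and Timp3 by 0.49, whereas Mmp14 at 0.34 and Mmp13 (collagenase 3) at 0.13 had unadjusted p values of 0.206 and 0.393. Postn, a matricellular protein of periosteum and other connective tissue, differed by 1.11, Fn1, fibronectin, by 0.68 and the type VI collagen chains Col6a1 and Col6a2 by 0.55 and 0.74. The chains of type I collagen, the main collagen of bone, stood near 0, Col1a1 at 0.04 and Col1a2 at -0.05, as did the cross-linking enzyme Lox at 0.05.

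Over the arrays, the list mean was 12.19, 11.93, 11.81 and 11.91 in wild type and 12.94, 12.96, 12.51 and 11.95 in knockouts, in log2 units. Knockout replicates 1 to 3 were above all wild-type arrays, and replicate 4 was among them. The median difference was 0.91 in replicates 1 and 2 and 0.41 in replicates 3 and 4, where 3 of 23 genes had an unadjusted p under 0.05. In replicates 3 and 4, 541 of the 12735 tested genes had such a p on the higher side and 331 on the lower. Under vehicle the median was -0.30, with 20 of 23 genes below 0 (49.6% of all genes), and the difference of differences had a median of 1.06, with 16 of 23 genes at an unadjusted p under 0.05 against 6.93% of all genes on that side. Wild type after estrogen had the lowest of the 4 group means in 19 of the 23, a share not counted over all genes.

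Skeletal muscle transcripts also varied between the arrays. Of 20 muscle markers, 19 were above 0 after estrogen, with a median of 0.57, and 2, Casq1 (1.30) and Pygm (1.31), had an unadjusted p under 0.05, against 53.4% and 5.54% of all genes. The sign depended on the set, with a median of 1.35 in replicates 1 and 2 and -0.12 in replicates 3 and 4. It was 0.14 without knockout replicate 1, 0.30 without knockout replicate 3 and 1.36 without knockout replicate 4, where 17 markers had an unadjusted p under 0.05. In the fit without knockout replicate 4, 1015 of the 12735 tested genes had such a p on the higher side. The summed signal of the muscle markers ran from 5433 to 892735 in knockouts and from 11966 to 255891 in wild type. The list mean per array was 12.74, 13.06, 9.71 and 8.76 in wild type and 15.08, 13.35, 10.53 and 7.80 in knockouts, and none of the 20 was at 0 on any of these arrays. The knockout array highest in muscle was replicate 1 and the lowest was replicate 4. Under vehicle the muscle median was -1.46, with 19 of 20 markers below 0 (49.6% of all genes). The difference of differences had a median of 2.13 for muscle, against 1.06 for the matrix list. For it, 15 of 20 markers had an unadjusted p under 0.05 by limma on the higher side, against 6.93% of all genes. With the muscle mean as a term in the model, an alternative chosen after seeing the data, the matrix median was 0.44 with 22 of 23 genes above 0 and 14 at an unadjusted p under 0.05. In that fit 470 of the 12735 tested genes had such a p on the higher side and 357 on the lower.

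**Figure D4:**
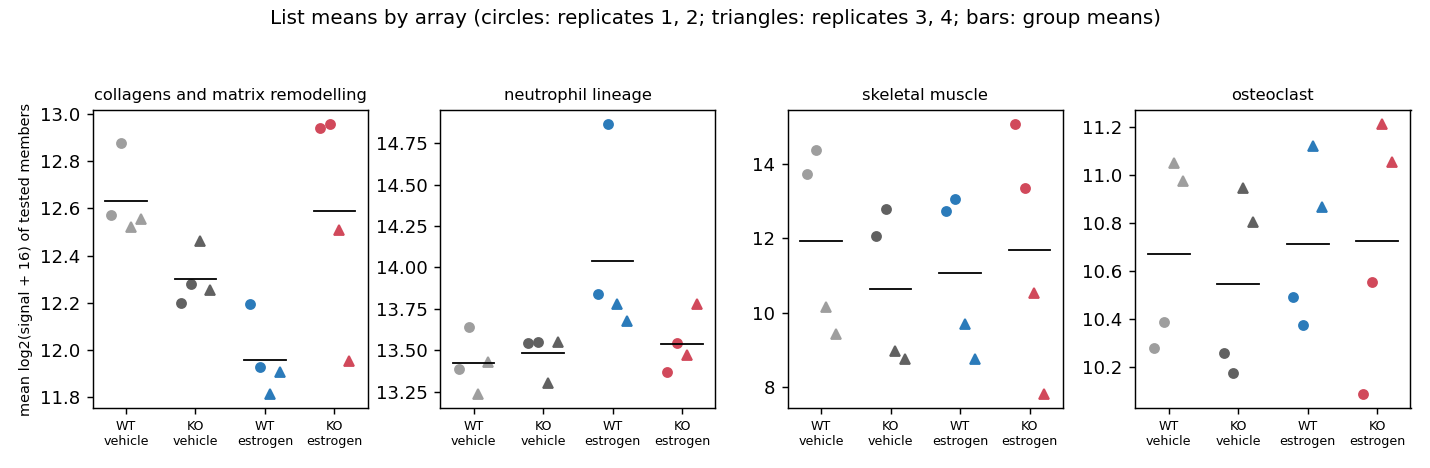
Mean log2(signal + 16) of the tested members of 4 lists on each of the 16 arrays, with circles for replicates 1 and 2, triangles for 3 and 4 and bars for group means. Knockout replicate 4 after estrogen lies with wild type in the matrix panel, wild-type replicate 2 stands apart in the neutrophil panel, and muscle and osteoclast levels follow the replicate set.

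The neutrophil lineage list had the lowest median in the fit of all arrays, -0.54. All 17 tested markers were below 0 and 8 had an unadjusted p under 0.05, against 46.6% below 0 and 4.30% of all genes. None passed the adjusted threshold in limma and none had separated groups, against 1.16% of all genes on the lower side. Elane, neutrophil elastase, read 16543, 26930, 21212 and 18712 in wild type and 5795, 11673, 16356 and 19884 in knockouts (-0.75 ± 0.26). Prtn3, proteinase 3, stood at 17947, 40564, 24946 and 21109 in wild type and at 7730, 14074, 18202 and 23271 in knockouts (-0.76 ± 0.28). Knockout replicates 1 and 2 were the lowest arrays in both genes, and replicate 4 was within the wild-type range.

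The primary granule genes Ctsg and Mpo differed by -0.78 and -0.53, Ms4a3, a marker of granulocyte and monocyte progenitors, by -0.78 and Mmp8, neutrophil collagenase, by -0.60. The abundant late markers S100a8 and S100a9 stood at -0.06 each, Ngp at -0.14 and Camp at -0.15. The list depended on single arrays. Its median was -1.02 in replicates 1 and 2 and -0.11 in replicates 3 and 4. Without wild-type replicate 2 it was -0.30 with 1 gene at an unadjusted p under 0.05, and without knockout replicate 1 it was -0.43, also with 1. In these fits 337 and 310 of the 12735 tested genes had such a p on the lower side. The summed signal of the list was 326440 to 850091 in wild type and 300317 to 466841 in knockouts. Whether the myeloid genes among the lower 15 follow this marker level was not tested.

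RNA quality also differed between arrays. The ratio of 3′ to 5′ signal of Actb was 2.44 in wild-type replicate 2 and 2.07 in knockout replicate 1, against 1.20 to 1.32 in the other 6 arrays after estrogen, and the mean spike-in signal of these 2 arrays was 19050 and 16168, above those of the others. The same ratio of Gapdh was 2.58 in wild-type replicate 2 but 1.36 in knockout replicate 1, against 1.04 to 1.32 in the other 6. The uneven signal of knockout replicate 1 was thus seen in Actb and not clearly in Gapdh. Wild-type vehicle replicate 2 stood at 3.53 for Actb and 2.46 for Gapdh. Without the 3 arrays the matrix median was 0.49, with 22 of 23 genes above 0 and 11 at an unadjusted p under 0.05. The neutrophil median was -0.16, with 1 such gene, and the muscle median was 0.18. In that fit 519 of the 12735 tested genes had such a p on the higher side and 329 on the lower.

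Among growth factor genes (transforming growth factor beta, bone morphogenetic protein, Wnt and insulin-like growth factor signalling), 6 of 28 had an unadjusted p under 0.05 on the higher side and 1 on the lower, against 5.54% and 4.30% of all genes. The median was 0.21, at 0.37 in replicates 1 and 2 and 0.02 in replicates 3 and 4, and 4 to 8 genes were on the higher side with an array left out. Igf1, the insulin-like growth factor made by bone and marrow stroma, read 918, 848, 389 and 651 in wild type and 1892, 1639, 882 and 758 in knockouts (0.83 ± 0.21). Igfbp5, an abundant binding protein of these factors in bone, stood at 2738, 2467, 779 and 2291 in wild type and at 9470, 4852, 3005 and 2337 in knockouts (1.18 ± 0.30). In both genes the groups overlapped: knockout replicates 3 and 4 for Igf1 and replicate 4 for Igfbp5 lay inside the wild-type range. Tgfb3 differed by 0.68, Bmp2 by 0.56 and Igf2 by 0.77.

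Id2, a relative of Id3, had the opposite sign to it: 3869, 4053, 2818 and 2764 in wild type against 1810, 2591, 2149 and 2632 in knockouts, without overlap (-0.55 ± 0.16). A second Id2 probe set, with a mean signal of 729, gave 0.02, and a dimmer one gave -0.55. In the list of the marrow niche, 2 of 14 genes had an unadjusted p under 0.05, against 5.54% of all genes on the higher side. They were Pdgfra and Nes, the intermediate filament nestin (0.63), although a second Nes probe set of similar signal gave -0.20. The chemokine Cxcl12 stood at 0.17.

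The osteoclast markers showed no shared shift. Their median was -0.03, with 9 of 19 above 0, and Ctsk alone had an unadjusted p under 0.05, against 53.4% and 5.54% of all genes. With an array left out the median ran from -0.13 to 0.11, with 0 to 2 markers at an unadjusted p under 0.05 on either side. Acp5 (tartrate-resistant acid phosphatase) stood at -0.08, Itgb3 at -0.07, Nfatc1, the master transcription factor of osteoclast formation, at -0.06, and the proton pump subunits Tcirg1 and Atp6v0d2 at -0.28 and 0.27. Atp6v0d2 stood at -0.04 in replicates 1 and 2 and at 0.59 in replicates 3 and 4, and without knockout replicate 1 it was 0.55 with an unadjusted p of 0.00405 (adjusted p = 0.713, limma). A second Atp6v0d2 probe set of similar signal gave 0.06 in the fit of all arrays. The list mean per array was 10.49, 10.38, 11.12 and 10.87 in wild type and 10.09, 10.55, 11.21 and 11.06 in knockouts, so that replicates 3 and 4 were above 1 and 2 in both genotypes. All 19 markers on the array passed the filter on low signal, as did 12735 of all 18193 named genes. Bulk RNA does not show which cells these signals came from.

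In signalling through RANKL and M-CSF, the cytokines that form osteoclasts, 1 of 20 genes had an unadjusted p under 0.05 on the higher side and 2 on the lower, against 5.54% and 4.30% of all genes. The median of -0.20 depended on single arrays: it was -0.02 without knockout replicate 1, -0.10 without wild-type replicate 3, -0.12 without wild-type replicate 1 and 0.04 in replicates 3 and 4. Tyrobp and Fcer1g, adaptor proteins that supply the costimulatory signal of osteoclast precursors and also serve other myeloid cells, differed by -0.63 ± 0.18 and -0.48 ± 0.19. Tyrobp read 16974, 22681, 11366 and 12025 in wild type and 10063, 8397, 9274 and 11691 in knockouts, and 1 knockout array reached the wild-type range. Tnfrsf11b, osteoprotegerin, the decoy receptor for RANKL, stood at 453, 206, 122 and 262 in wild type and at 402, 833, 248 and 304 in knockouts (0.73 ± 0.31). RANKL itself (Tnfsf11) stood at -0.17, its receptor (Tnfrsf11a) at 0.20 and the M-CSF receptor (Csf1r) at 0.04.

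In the Fas and death receptor pathway, 19 of 25 listed genes were tested and 13 were below 0 (46.6% of all genes), with a median of -0.16. On the lower side 3 had an unadjusted p under 0.05, against 4.30% of all genes, and 1 to 4 did with an array left out, 1 of them without wild-type replicate 2 or knockout replicates 1 or 2. The 3 genes were Bid (-0.60), the protein that links death receptors to mitochondria, Bbc3 (-0.43), which encodes the BH3-only protein PUMA, and Apaf1 (-0.38), the core of the apoptosome. Bid read 1357, 742, 1109 and 992 in wild type and 401, 580, 959 and 919 in knockouts, so the gap came mainly from replicates 1 and 2 (-1.03) rather than 3 and 4 (-0.16). The adaptor Fadd stood at 0.20 and the initiator protease Casp8 at -0.37, with unadjusted p values of 0.269 and 0.270.

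Of 25 tested genes of the estrogen response list, Igfbp5 and Igf1 were the ones with an unadjusted p under 0.05 on the higher side. Rab31 (-0.40, with -0.03 from its other probe set) was the one on the lower side. The shares of all genes were 5.54% and 4.30%. Nrip1, a corepressor that estrogen induces in many cells, stood at 0.33, Myc at 0.43 and Ccnd1, cyclin D1, at 0.32, each with an unadjusted p above 0.05. In the circadian clock list (16 genes, median 0.36), Bhlhe40, Nr1d2 (1.00) and Dbp (0.87) had such a p on the higher side, against 5.54% of all genes. The repressor Nfil3 (-0.70) did on the lower side, against 4.30%. The median of that list was 0.63 in replicates 1 and 2 and -0.20 in replicates 3 and 4, so the sets differed in sign. Without knockout replicate 1 it was 0.16.

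**Figure D5:**
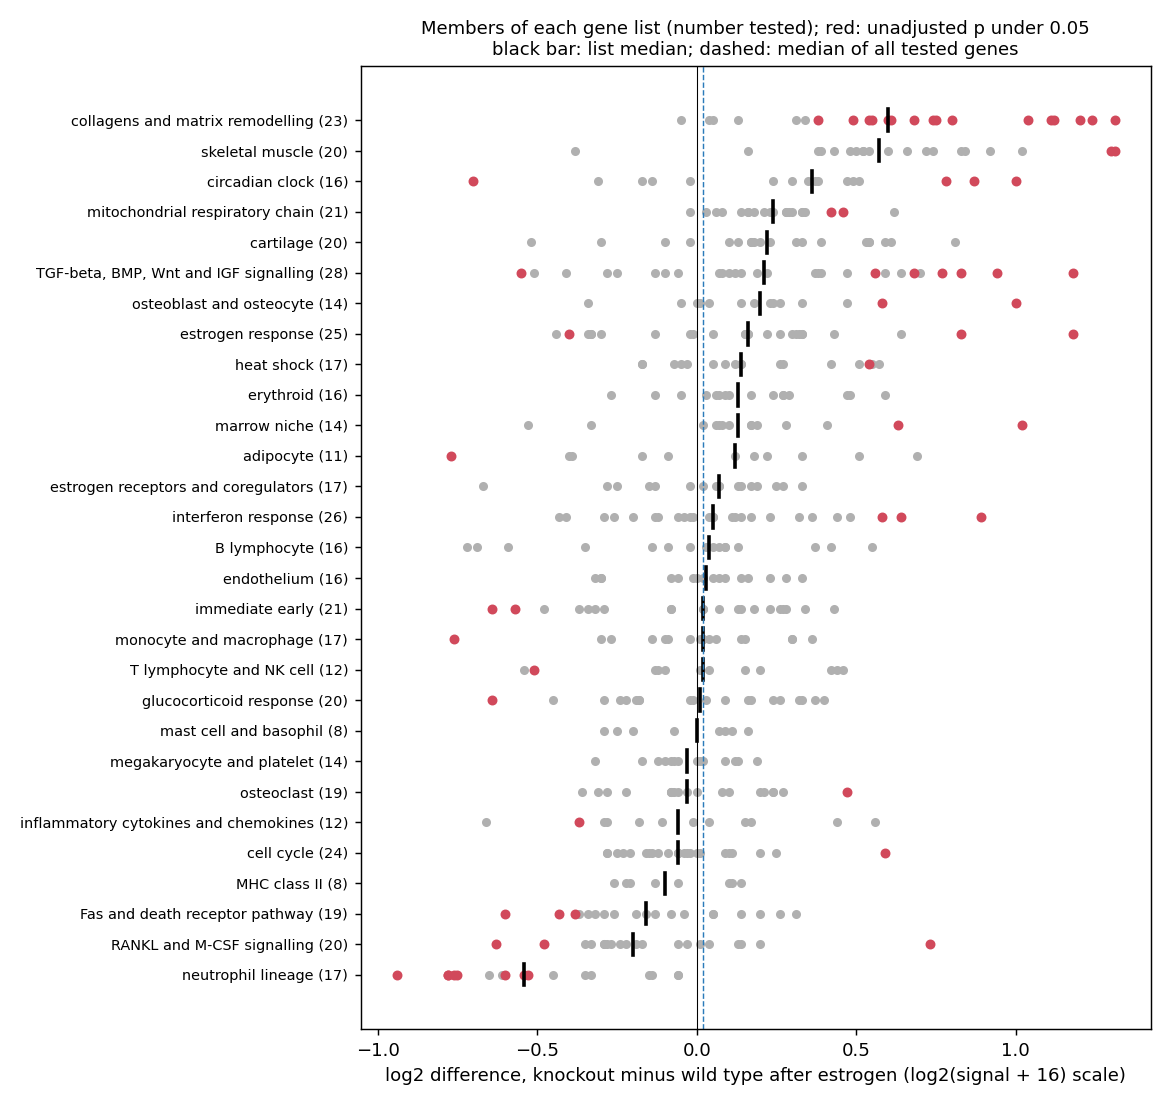
Log2 difference, knockout minus wild type after estrogen, of every tested member of the 29 gene lists, with black bars for list medians, red points for an unadjusted p under 0.05 and a dashed line at the median of all genes, 0.02. The collagen and matrix list lies highest and the neutrophil list lowest.

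Interferon-response genes stood nearer 0 after estrogen than under vehicle. After estrogen the median of 26 genes was 0.05. Ifit3 (0.89), Ifi47 (0.58) and Xaf1 (0.64) had an unadjusted p under 0.05, against 5.54% of all genes on the higher side. A second Xaf1 probe set of similar signal gave -0.39. The median after estrogen was -0.13 without wild-type replicate 3 and -0.08 without knockout replicate 2, and 0 to 4 genes were on the higher side with an array left out. Under vehicle the median was 0.69, all 26 were above 0 (50.4% of all genes) and 18 had an unadjusted p under 0.05, against 3.24% of all genes on that side. The difference of differences had a median of -0.59, with 6 of 26 genes at an unadjusted p under 0.05 on the lower side against 5.14% of all genes. Knockout under vehicle had the highest of the 4 group means in all 26, a share not counted over all genes.

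No cartilage marker had an unadjusted p under 0.05 (20 tested, median 0.22), nor did any of B lymphocytes (16, median 0.04), erythroid cells (16, median 0.13) or endothelium (16, median 0.03). These medians depended on single arrays. Cartilage stood at 0.76 without knockout replicate 1, 0.65 without knockout replicate 4, -0.33 without knockout replicate 2 and 0.00 without wild-type replicate 3, and at 0.73 without the 3 arrays of uneven Actb signal. With an array left out the erythroid median ran from -0.12 (wild-type replicate 3) to 0.41 (wild-type replicate 4) and the B lymphocyte median from -0.26 (wild-type replicate 3) to 0.23 (knockout replicate 1), with up to 4 and 3 markers at an unadjusted p under 0.05 on 1 side. Of 14 osteoblast and osteocyte markers, Dlx5, a transcription factor of osteoblasts (0.58), and Kera, keratocan (1.00), had an unadjusted p under 0.05. The share of all genes on the higher side was 5.54%. Without wild-type replicate 2 or knockout replicate 2, 0 markers had such a p (limma). Kera was bright in replicates 1 and 2 (226 and 259 in wild type, 1202 and 611 in knockouts) and 41.1 or less in replicates 3 and 4 of both groups. The mitochondrial respiratory chain had 20 of 21 genes above 0, against 53.4% of all genes, with a median of 0.24. That median was 0.04 without knockout replicate 1 and 0.00 when the 3 arrays with strong spike-in signals were left out.

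Promoter windows of RefSeq (build GRCm38.p6, 250 bases before to 50 after the start) were searched on both strands for the interferon-stimulated response element core (GAAA, any 2 bases, GAAA), the palindromic estrogen response element (GGTCA, any 3 bases, TGACC) and the Runx site (AAACCACA). This search was meant for genes that passed and was applied to the 30 named genes after none did. Of these, 27 had a window, and 2 of them, Arhgap15 and Pilra, held the interferon core (7.41%, against 3.99% of all genes with a window). None held the estrogen element, which 0.074% of all genes hold, or the Runx site, which 2.11% hold. Among tested genes with a window the shares were 3.78% for the interferon core, 0.0195% for the estrogen element and 1.49% for the Runx site. At such shares 27 windows would mostly hold neither of the last 2, so their absence decides nothing. Both windows with a match are shown 5′ to 3′ because these genes lay lower in the knockout without overlap, with the matched bases in capitals. Arhgap15 is at chr2:43787105-43787404 on the plus strand, with the match on the minus strand, and Pilra at chr5:137836229-137836528 on the minus strand.
Arhgap15: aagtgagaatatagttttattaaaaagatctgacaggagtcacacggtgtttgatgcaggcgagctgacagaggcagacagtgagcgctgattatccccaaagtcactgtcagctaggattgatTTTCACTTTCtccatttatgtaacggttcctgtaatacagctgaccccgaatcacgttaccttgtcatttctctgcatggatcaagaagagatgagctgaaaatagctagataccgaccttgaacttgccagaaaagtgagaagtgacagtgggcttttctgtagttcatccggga
Pilra: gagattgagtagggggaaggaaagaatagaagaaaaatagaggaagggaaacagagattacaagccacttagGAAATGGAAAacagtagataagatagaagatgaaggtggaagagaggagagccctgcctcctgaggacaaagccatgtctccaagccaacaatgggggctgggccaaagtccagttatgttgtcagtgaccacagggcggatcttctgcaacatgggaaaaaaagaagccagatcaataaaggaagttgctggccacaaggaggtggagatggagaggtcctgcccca
A match is a description of these letters and not evidence of binding. In the matrix list, 1 of 13 genes with a window, Mmp13, held both the interferon core and the Runx site (7.69% each), and the Esr1 window held the interferon core. The windows of Fasl and of the 17 neutrophil markers held none of the 3 motifs, which so few windows cannot make informative.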

How the data were processed

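Total RNA was hybridized to 16 Affymetrix mouse arrays, 1 per mouse. The authors deposited 1 linear intensity per probe set, computed with GCOS (version not stated) per the submitters' processing notes. Their 2% trimmed mean was 500 on every array, so the intensities were used as deposited. Of 45101 probe sets, 34945 had 1 gene symbol, 932 several and 9160 none, and 64 were controls. Through Entrez identifiers 34741 matched RefSeq.

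Each gene took its probe set of highest mean log2(signal + 16), which understates folds of dim genes, and the lowest 30% of genes were left out (mean signal under about 109). limma 3.58.1 in R 4.3.3 fitted all 16 arrays with 1 mean per group and the replicate set (11 residual degrees of freedom, variance trend). P-values are two-sided, Benjamini-Hochberg adjusted over 12735 genes, and the script was tested on simulated data. Named genes were the 15 of smallest p on each side (1 clone-named gene was skipped), Esr1, Fasl, Fas, Ctsk, and the 2 to 4 smallest p values of each list. The members and lists were chosen with earlier results of these data known. Same-numbered arrays of different groups deviated together (24 correlations of 0.178 to 0.593), which met the criterion for treating the numbers as pairs. Their median of 0.314 was not above the 0.354 of arrays of the same set with another number, and the labels name no shared litter or day. The number of arrays limits the precision. Alternatives are given in the closing section.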

Additional observations from a re-analysis of the deposited data

Results flagged for a closer look

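In groups of 4 arrays, the array farthest from the others was set against Dixon's 95% critical value, over 134 group and quantity combinations, and 10 exceeded it; chance alone gives about 1 in 20.

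In wild type after estrogen, replicate 2 stood apart in 3 of these. Its Id3 signal of 835 lay below the other arrays, at 1129 to 1154. Its neutrophil lineage mean of 14.87 lay above 13.68 to 13.84, and its Actb 3′ to 5′ ratio of 2.44 above 1.23 to 1.32. Replicate 3 of that group was low in the erythroid list, 10.54 against 11.95 to 12.08, and in the mast cell and basophil list, 8.76 against 9.14 to 9.19. Replicate 1 was high in the MHC class II list, 10.86 against 10.31 to 10.36.

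In the knockout after estrogen, replicate 4 was high for Ceacam10, at 1219 against 823 to 860, and low in the inflammatory cytokine list, 9.34 against 9.61 to 9.64. Replicate 3 was low in the list of estrogen receptors and coregulators, 9.88 against 10.06 to 10.09. Replicate 1 had an Actb 3′ to 5′ ratio of 2.07 against 1.20 to 1.28. The causes were not tested.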

How the results depend on the processing

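After estrogen, 0 genes passed under every alternative run except without knockout replicate 4, where 2 passed (range over left-out arrays 0 to 2, limma). With the replicate number as a replicate block, 0 passed and 1207 had an unadjusted p under 0.05, so the block changed no call, also not under vehicle or for the difference of differences. Counts at an unadjusted p under 0.05 were 1253 as reported, 859 without the replicate set term, 709 on the 8 arrays alone, 800 without knockout replicate 1, 825 without wild-type replicate 2, 848 when the 3 arrays with strong spike-in signals were left out, 827 with the muscle term and 1747 without knockout replicate 4. Averaging all probe sets of a gene gave a smallest adjusted p of 0.059, for Runx3, and taking the probe set of highest linear mean, chosen after seeing the data, gave 0.135. Under vehicle 1 gene passed with a 50% filter (Aldh1a2) and 3 with array quality weights, and 0 to 1 with an array left out. For the difference of differences, 4 passed in replicates 1 and 2 alone (Ptn, Postn, Aspn, Itm2a), and 0 to 46 with an array left out, 46 of them without knockout replicate 4. The cause was not tested. Esr1 turned to -0.11 with all probe sets averaged, -0.03 with quality weights, -0.14 without the spike-in arrays, -0.26 in replicates 3 and 4, -0.02 with the muscle term and, over left-out arrays, ran from -0.12 to 0.21 (below 0 without knockout replicate 1 or wild-type replicate 3, -0.01). Its other probe sets gave -0.35 and -0.06. Fasl turned to 0.13 with its other probe set, also the one of highest linear mean, and Fas ran from -0.37 to 0.11 over left-out arrays, at 0.00 or above without wild-type replicates 1 or 3 or knockout replicates 2 or 4. In 929 values of the 30 genes of smallest p under alternatives, 0 turned sign. Signal near background limits Fasl.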

Other observations

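Of 4371 bright probe sets with no gene symbol or several, 0 passed after estrogen in limma and 255 had an unadjusted p under 0.05.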
